A study of Danio rerio with 4 samples.

Results

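Notch receptors, the jagged ligands and the her genes that Notch activates were examined in zebrafish β-cells that express the cytokine il1b. The set held 10 gene symbols: the receptors notch1a, notch1b, notch2 and notch3, the ligands jag1b and jag2b, and the targets her4.1, her4.2, her6 and her9. They matched 11 of the 22044 genes in the expression table, because the symbol her4.2 stands on 2 gene identifiers. The set was chosen with the values in these libraries already known. Its differences between genotypes are therefore given as a description, and where calls from the fit over all genes are counted among its members, nothing is read from them.

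Notch is a receptor that is activated by ligands of the Delta and Jagged families on neighbouring cells. Ligand binding lets proteases release the intracellular part of the receptor, which enters the nucleus, joins the DNA-binding protein Rbpj and switches on target genes. The best-known targets are the her and hes genes, which encode transcriptional repressors of the basic helix-loop-helix class. In the zebrafish pancreas, Notch-responsive cells line the ducts and act as progenitors, and Notch activity holds back their differentiation into endocrine cells.

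Pancreatic β-cells were taken from 3-month-old zebrafish of 2 genotypes, with 2 libraries each. Tg(ins:il1b) fish carried a transgene in which the insulin promoter drives the zebrafish inflammatory cytokine Il-1β, cut to what is presumed to be its active form, together with a cryaa:mCherry marker for the lens; the labels write it as Tg(ins:IL1B). Fish of both genotypes carried the reporter labelled Tg(ins:mKO), which the methods write as Tg(ins:nlsRenilla-mKO2), and fish with the reporter alone served as WT. Islets were dissociated and the reporter-positive cells sorted by flow cytometry before RNA sequencing. Because the same promoter drives the transgene and the reporter, a sorted cell need only have used the insulin promoter. The sources do not say how many animals stand behind each library, so the spread between libraries may be technical.

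Reads assigned to genes numbered 28524617 and 28702122 in the Tg(ins:il1b) libraries, against 35073715 and 35637508 in the WT libraries. Levels are given as normalised counts, in which the reads of each library were scaled by a factor of that library. The transgene check followed the labels, with il1b at 587911 and 423851 normalised counts in Tg(ins:il1b) β-cells, against 11 and 1.9 in WT. Insulin (ins) took 11.7 and 9.56% of all reads in Tg(ins:il1b), against 18.5 and 24.5% in WT, so that the defining β-cell transcript was abundant in every library. Of 7 β-cell markers tested, ins among them, limma called 0 higher and 1 lower, and DESeq2 called 0 higher and 2 lower. The 1 called by limma was g6pcb, at 1416.9 and 2549.7 normalised counts in Tg(ins:il1b), against 12707.6 and 39926.4 in WT. An unadjusted limma p under 0.05 was reached by 5, all lower. Transcripts of other islet hormones were also present and unequal. Somatostatin sst1.1 stood at 45219.4 and 1076220 normalised counts in Tg(ins:il1b), against 92132.9 and 2058.8 in WT, and replicate 2 of Tg(ins:il1b) stood apart in this gene.

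The largest contrast in the set belonged to the her4 genes, which are direct Notch targets in zebrafish neural and pancreatic progenitors. Transcripts of her4.1 reached 205.2 and 724.5 normalised counts in the Tg(ins:il1b) libraries, against 0 and 0 in the WT libraries. No WT library held a single read, and the replicates of Tg(ins:il1b) themselves differed widely. Against a floor of 3 reads per WT library, the mean of her4.1 was at least 165-fold higher in Tg(ins:il1b). Its fitted log2 difference was 8.60 (SE 0.85), a figure that depends on the pseudocount of 1 and is no bound.

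The symbol her4.2 belonged to a row on each strand. The forward-strand her4.2 gene reached 403.2 and 752.3 normalised counts in Tg(ins:il1b), against 0 and 0 in WT. Its mean was at least 205-fold higher, with a fitted log2 difference of 9.11 (SE 0.70). The reverse-strand her4.2 gene, which carries the symbol her4.5 in a current gene-name table, was the lowest of the her4 members, at 42.4 and 82.3 normalised counts in Tg(ins:il1b), against 0 and 0 in WT. Its mean was at least 22.1-fold higher, with a fitted log2 difference of 5.91 (SE 0.97). All of these rows thus shared the same order of libraries, with Tg(ins:il1b) replicate 2 highest, replicate 1 below it and both WT libraries at 0.

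**Figure D1:**
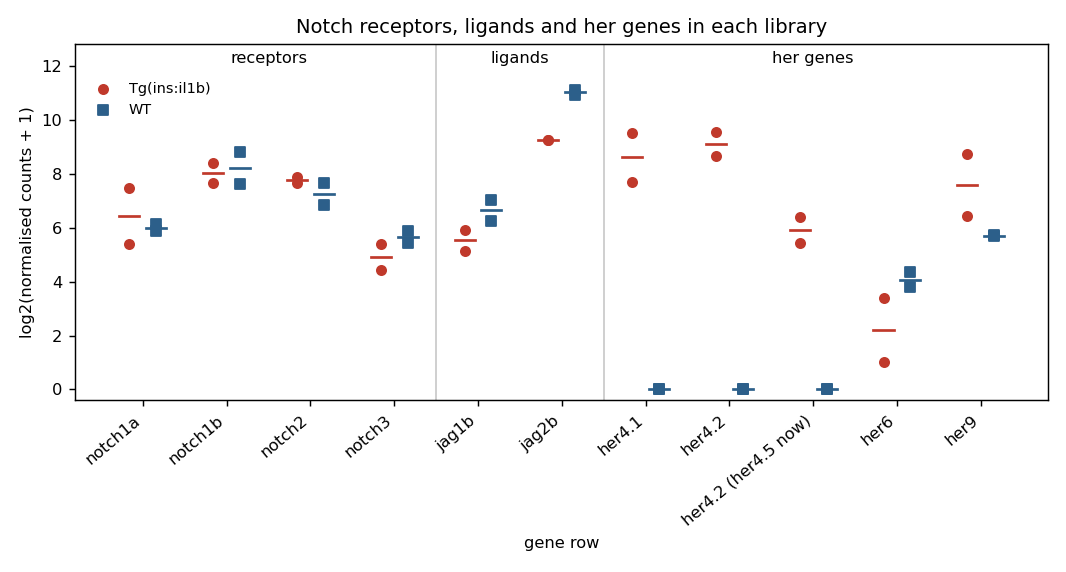
Level of each member gene as log2(normalised counts + 1), with a point for each of the 4 libraries, a dash for the mean of each genotype and Tg(ins:il1b) left of WT. Both WT libraries lie at 0 for the her4 genes, jag2b lies between 601.3 and 2177.5, and the points of the genotypes are interleaved for notch1a and notch1b.

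The her4 genes stand as a tandem cluster on chromosome 23 of the GRCz10 assembly. In the table, her4.1 spans bases 21526006 to 21527063 on the reverse strand, and the forward-strand her4.2 gene spans 21528601 to 21534583. The reverse-strand her4.2 gene lies at 21542652 to 21544471. Between and over them lie her4.3 and her4.4, which were not in the set. The gene model of her4.3 shares 1872 bases with the forward-strand her4.2 gene, and that of her4.4 shares 1820 bases with the reverse-strand one, in both cases on the same strand. These genes are also nearly identical in sequence, so the split of reads between them is uncertain. How reads that match several of them were counted is not given in the sources used here.

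Over all 5 her4 rows the sum came to 768 and 1684 reads in Tg(ins:il1b), against 0 and 0 reads in WT. Whether reads that match several rows were dropped, divided or counted more than once bears on this sum too. Scaled to depth, this was 26.9 and 58.7 RPM in Tg(ins:il1b). A count of 0 reads allows up to 0.0855 and 0.0842 RPM in the WT libraries, which covers counting error only. Cells of one type that are fewer and cells that hold less of an RNA cannot be told apart in these bulk libraries.

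Both remaining rows of the cluster were also at 0 in WT. Transcripts of her4.4 were measured at 102.1 and 221.2 normalised counts in Tg(ins:il1b), against 0 and 0 in WT, at least 57.2-fold higher. Those of her4.3 were measured at 23.2 and 19.2 in Tg(ins:il1b), against 0 and 0 in WT, at least 7.50-fold higher, and here replicate 1 of Tg(ins:il1b) was the higher one. Because reads may be shared within the cluster, and both rows passed the filter on low values only through the Tg(ins:il1b) libraries, they are not separate evidence.

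Genes that lie beside the cluster, within 100000 bases of it, had reads in both genotypes with 1 exception. The ubiquitin ligase gene ubr4 stood at 3057.2 and 3495.5 normalised counts in Tg(ins:il1b), against 3030 and 4002.8 in WT. The gene iffo2a was measured at 83.9 and 90.8 in Tg(ins:il1b), against 29.4 and 11.6 in WT, without passing limma (adjusted p = 0.193). The exception was tas1r1, at 1 and 18.2 in Tg(ins:il1b), against 0 and 0 in WT, which was too low to be tested. The genotypes also did not overlap for rnf207b, at 44.5 and 16 in Tg(ins:il1b), against only 4.6 and 3.9 in WT. The same held for icmt, at 1065.2 and 889.1 in Tg(ins:il1b), against 712.7 and 608.8 in WT. For ubr4, rcc2 and arhgef10lb the genotypes overlapped, while 44.4% of all genes tested did not overlap. None of the 6 neighbours tested passed limma.

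**Figure D2:**
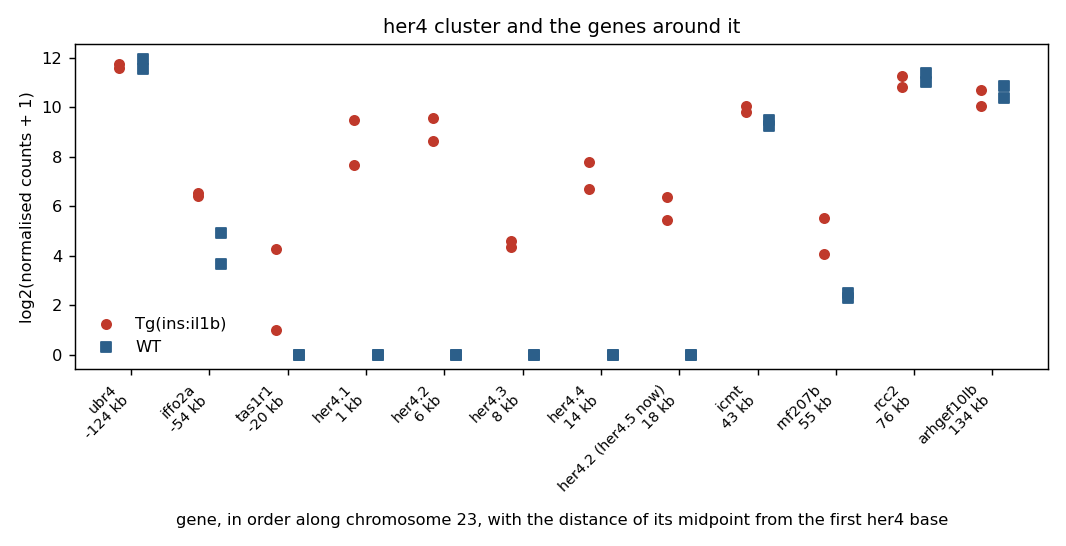
Levels as log2(normalised counts + 1), with a point for each library and Tg(ins:il1b) left of WT, for the 5 her4 rows and the genes within 100000 bases of them, in order along chromosome 23 with the distance in kilobases below each name. All 5 her4 rows lie at 0 in both WT libraries, while ubr4 lies between 3030 and 4002.8 and rnf207b between 3.9 and 44.5.

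A complete absence from WT was uncommon in the table. With at least 19 normalised counts in both Tg(ins:il1b) libraries and 0 in both WT libraries, there were 26 genes, or 0.118% of 22044, of which 5 were the her4 rows. The reverse, with 0 in both Tg(ins:il1b) libraries and at least 19 normalised counts in both WT libraries, held for 4 genes, or 0.0181%. The minimum of 19 normalised counts was set after the her4 values had been seen, from the lowest of them. All 5 her4 rows were therefore bound to be counted, and as they may share reads they are not separate evidence.

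The other her genes of the set differed from her4 in that the WT libraries held reads of them. Transcripts of her9, a repressor that in zebrafish responds to BMP as well as to other signals, reached 84.9 and 426.4 normalised counts in Tg(ins:il1b), against 51.4 and 50.2 in WT. Both Tg(ins:il1b) libraries lay above both WT libraries, but much of the distance came from replicate 2. The fitted log2 difference of her9 was 1.89 (SE 0.76). With Tg(ins:il1b) replicate 2 left out it was 0.73, and with replicate 1 left out it was 3.04. Limma did not call her9, whereas DESeq2 did.

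Transcripts of her6, the zebrafish counterpart of the mammalian Notch target Hes1, were the scarcest of the set in Tg(ins:il1b). They numbered 1 and 9.6 normalised counts in Tg(ins:il1b), against 12.9 and 19.3 in WT. The genotypes did not overlap, and her6 was lower in Tg(ins:il1b), with a log2 difference of -1.87 (SE 1.13). Thus her6 and the her4 genes lay on opposite sides of WT, although at these few reads the error of her6 was large.

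All 4 receptor genes were detected in every library. Per length of transcript, notch1b had the highest mean of them, at 33.1 and 20.2 normalised counts per kilobase in Tg(ins:il1b), against 19.5 and 44.6 in WT. Its level was 330.5 and 202 normalised counts in Tg(ins:il1b), against 194.7 and 444.8 in WT. These values interleave, and the log2 difference was -0.19 (SE 0.48). For notch1b the within-genotype spread was therefore wider than the distance between the genotypes.

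Levels of notch1a were 41.4 and 174.2 normalised counts in Tg(ins:il1b), against 56.9 and 69.5 in WT. The Tg(ins:il1b) libraries lay on either side of both WT libraries, with a log2 difference of 0.43 (SE 0.73). As for her9, her4.1 and both her4.2 genes, the higher of the Tg(ins:il1b) libraries was replicate 2.

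For notch2 the values were 201.1 and 234 normalised counts in Tg(ins:il1b), against 112.1 and 198.7 in WT. The genotypes did not overlap, but replicate 1 of Tg(ins:il1b) exceeded replicate 2 of WT only narrowly, and the log2 difference was 0.54 (SE 0.41). For notch3, the lowest of the receptors per length in both genotypes on average, they were 41.4 and 20.3 in Tg(ins:il1b), against 42.2 and 56.9 in WT. These also did not overlap, by a still smaller margin, and the log2 difference was -0.73 (SE 0.63). Neither difference was large against its error.

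Summed over the 4 receptors, the level was 614.4 and 630.5 normalised counts in Tg(ins:il1b), against 405.9 and 769.9 in WT. Both Tg(ins:il1b) sums lay between the WT sums. Limma called 0 of the 4 receptors, against 1.63% of all genes tested, and DESeq2 called 0, against 6.68% of all genes with an adjusted p. EdgeR also called 0, against 236 of the 18504 genes tested. None had an unadjusted limma p under 0.05, against 2664 of the 18504. At these shares, 0 calls among 4 genes says little about the receptors.

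Of the ligands, jag2b had the most even values. It encodes a Jagged ligand, a membrane protein that activates Notch on the neighbouring cell. Its transcripts were measured at 601.3 and 604.8 normalised counts in Tg(ins:il1b), against 1935.2 and 2177.5 in WT. The mean was 603 ± 2.47 in Tg(ins:il1b) and 2056 ± 171 in WT (SD, n = 2 each), and the log2 difference was -1.77 (SE 0.21). Replicates stood close together in both genotypes, and the genotypes were far apart. The SD in Tg(ins:il1b) rests on 2 values, from 595 and 566 reads. It is smaller than the counting error of such reads and is no measure of precision.

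The second Jagged gene of the set, jag1b, was much lower. It was measured at 34.4 and 58.8 normalised counts in Tg(ins:il1b), against 75.3 and 129.3 in WT. Both Tg(ins:il1b) libraries lay below both WT libraries, with a log2 difference of -1.12 (SE 0.55). The members that encode ligands were thus both lower in Tg(ins:il1b), and the margin of jag2b was the larger against its error. As the set was chosen on these values, this is a description and no test.

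Across the set, limma called 4 of the 11 genes at an adjusted p under 0.05, against 1.63% of the 18504 genes tested. The 3 called higher were her4.1 and both her4.2 genes, against 1.1% of all genes tested. The 1 called lower was jag2b, against 0.53%. DESeq2 called 5 members, adding her9, against 6.68% of all genes with an adjusted p. EdgeR called 3 members, against 236 of the 18504 genes tested. The genotypes did not overlap in 9 of the 11 members, against 44.4% of all genes tested. The median log2 difference of the members was 0.43, against -0.01 for all genes tested. All 11 members passed the filter on low values, but the her4 genes passed it through the Tg(ins:il1b) libraries alone. As the set was chosen on these values, nothing is read from these counts.

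With any 1 library left out, a genotype is left with 1 library, and the limma calls of the members did not hold on the same genes. As the members were also chosen on these values, nothing is read from calls in such fits, and log2 differences are given. With the filter on low values reset on the libraries that remained, the her4 genes fell below it when a Tg(ins:il1b) library was left out. They therefore had no fit there and could not be called. In these fits the log2 difference of jag2b was -1.76 without Tg(ins:il1b) replicate 1 and -1.77 without replicate 2. That of her9 was 3.04 without Tg(ins:il1b) replicate 1, and that of the forward-strand her4.2 gene was 9.11 without either WT library. As both WT libraries were at 0 for this her4.2 gene, leaving out either of them could not change its value. The reverse-strand her4.2 gene was the weakest call, and edgeR did not make it. Without the variance trend of the limma test, only the forward-strand her4.2 gene was called. Without Tg(ins:il1b) replicate 2, the library that stood apart in sst1.1, the log2 difference was 7.69 for her4.1 and 8.66 for the forward-strand her4.2 gene.

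The order of the members by level per length differed between the genotypes. In Tg(ins:il1b), her4.1 was highest at 213 and 752 normalised counts per kilobase, followed by the forward-strand her4.2 gene at 182 and 339, her9 at 54.7 and 275 and jag2b at 101 and 102. These neighbours overlap in that order, so their ranks are not set apart by the libraries. In WT, jag2b was highest at 325 and 366 normalised counts per kilobase, with a wide gap to her9 at 33.1 and 32.4, notch1b at 19.5 and 44.6 and notch2 at 11.1 and 19.7. Below these came jag1b at 11.1 and 19.1, her6 at 8.39 and 12.5, notch1a at 6.11 and 7.46 and notch3 at 5.33 and 7.18, each overlapping the next except her6 and notch1a. In Tg(ins:il1b) the lower ranks were held by the reverse-strand her4.2 gene at 24.6 and 47.7, notch1b at 33.1 and 20.2, notch2 at 19.9 and 23.2, notch1a at 4.44 and 18.7, jag1b at 5.09 and 8.71, notch3 at 5.23 and 2.56 and her6 at 0.65 and 6.24. Of these lower ranks, neighbours overlapped except notch2 and notch1a, and jag2b stood clear above them.

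**Figure D3:**
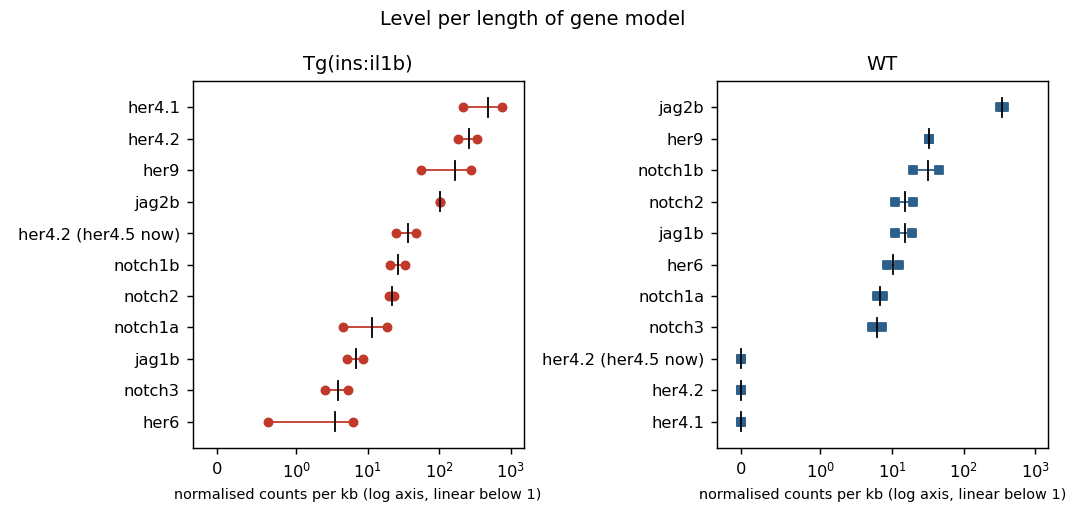
Level per length of the members, in normalised counts per kilobase on a log axis that is linear below 1, with Tg(ins:il1b) in the left panel, WT in the right one, points for libraries and black ticks for means. In WT the her4 genes are at 0 and jag2b is the highest member, at 325 and 366.

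Other genes of the pathway, together with pro-endocrine factors, were taken from 8 lists written from knowledge of the pathway. These lists held 76 rows outside the set, of which 67 could be tested, and all are counted as pathway genes. Limma called 2 of them higher, neurl1aa and her4.4, against 1.1% of all genes tested, and 0 lower, against 0.53%. An unadjusted p under 0.05 was reached by 10 that were higher and 4 that were lower, against 1471 and 1193 of the 18504 genes tested. DESeq2 called 8, all higher, and edgeR called 1, against 236 of the 18504 genes tested. Over all genes DESeq2 called 6.68% in either direction, of which 789 were higher and 456 lower. The 8 included her4.3 and her4.4, which may share reads with members, and the pro-endocrine factors insm1a and insm1b. The median log2 difference of the 67 genes was 0.01, close to the -0.01 of all genes tested, with 36 of them positive and 31 negative.

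Among the other ligands, dlc, a Delta ligand, was the highest per length in both genotypes. It was measured at 1915.2 and 1749.3 normalised counts in Tg(ins:il1b), against 1933.3 and 3794.4 in WT, without passing limma (log2 difference -0.57, SE 0.33, adjusted p = 0.524). The Jagged gene jag1a ran the other way from jag1b and jag2b, at 134.4 and 294.9 in Tg(ins:il1b), against 30.3 and 47.3 in WT. Its log2 difference of 2.36 (SE 0.55) missed the limma threshold (adjusted p = 0.117) and passed that of DESeq2. Limma called 0 of the 4 other ligands tested, with 1 at an unadjusted p under 0.05.

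Genes that modify ligands and receptors held 1 call, neurl1aa. It belongs to the Neuralized family of ubiquitin ligases, which in Drosophila promote ligand endocytosis, and it rose in Tg(ins:il1b). It was measured at 3187.6 and 3245.4 normalised counts in Tg(ins:il1b), against 1426.3 and 1472.2 in WT (log2 difference 1.15, SE 0.19, limma adjusted p = 0.0496). Its replicates were close, but the adjusted p lay just under the threshold and edgeR did not call it. The glycosyltransferase gene lfng, whose product changes which ligands a receptor answers to, was measured at 1225.9 and 2951.5 in Tg(ins:il1b), against 807.3 and 602 in WT (adjusted p = 0.192). The fucosyltransferase gene pofut1 was measured at 1441.2 and 1440.5 in Tg(ins:il1b), against 1101.2 and 978.3 in WT (adjusted p = 0.381). Of the 9 modifiers, limma thus called 1, while DESeq2 called 3, adding lfng and neurl1b.

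The proteases that cut the receptor showed no call. Limma called 0 of 10, as did DESeq2 and edgeR, and 2 that were lower had an unadjusted p under 0.05. The γ-secretase subunit gene aph1b was measured at 1286.6 and 1341.1 normalised counts in Tg(ins:il1b), against 2099.6 and 1976.8 in WT (limma adjusted p = 0.216). The proprotein convertase gene furina was measured at 19381.2 and 13884.6 in Tg(ins:il1b), against 19326.8 and 18903.4 in WT (adjusted p = 0.752).

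Of the 13 nuclear partners and co-repressors, limma, DESeq2 and edgeR called 0, and 1 that was lower had an unadjusted p under 0.05. The deacetylase gene hdac1 was nearly level, at 6027.5 and 5590 normalised counts in Tg(ins:il1b), against 5924 and 5610.1 in WT (log2 difference 0.01, SE 0.18). Of the 8 inhibitors and turnover genes tested, limma, DESeq2 and edgeR called 0, and none had an unadjusted p under 0.05. The ubiquitin ligase genes itcha and fbxw7 in that list had log2 differences of -0.16 (SE 0.33) and -0.02 (SE 0.27).

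Among the her, hes and hey genes outside the set, 12 of 15 could be tested and limma called only her4.4, which shares bases with a member. DESeq2 called her4.3 and her4.4. An unadjusted limma p under 0.05 was reached by her4.3, her4.4 and her13, which were higher, and by heyl, which was lower. All of these passed the filter on low values through 1 genotype alone. Levels of heyl were 1 and 0 normalised counts in Tg(ins:il1b), against 15.6 and 14.5 in WT (limma adjusted p = 0.224). Hes6, which in other vertebrates opposes Hes1, was measured at 215.3 and 728.8 normalised counts in Tg(ins:il1b), against 137.8 and 190.1 in WT (log2 difference 1.29, SE 0.59, limma adjusted p = 0.390). Again replicate 2 was the higher of the Tg(ins:il1b) libraries. The gene her15.1 did not follow the her4 pattern, at 133.4 and 76.9 in Tg(ins:il1b), against 0 and 117.7 in WT (adjusted p = 0.550).

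Factors that drive or mark endocrine differentiation, a process held back by Notch in progenitors, ranged widely in level. Limma called 0 of the 11 tested, with 3 of the 14 rows too low to test. An unadjusted p under 0.05 was reached by 3, all higher. DESeq2 called insm1a and insm1b higher, and edgeR called 0. Neurod1 was measured at 29255.2 and 24563.3 normalised counts in Tg(ins:il1b), against 16131.6 and 23804.4 in WT (log2 difference 0.45, SE 0.25, adjusted p = 0.490). Pax6b was measured at 19998.7 and 24519.5 in Tg(ins:il1b), against 29556.5 and 30565.4 in WT (log2 difference -0.44, SE 0.20, adjusted p = 0.393).

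**Figure D4:**
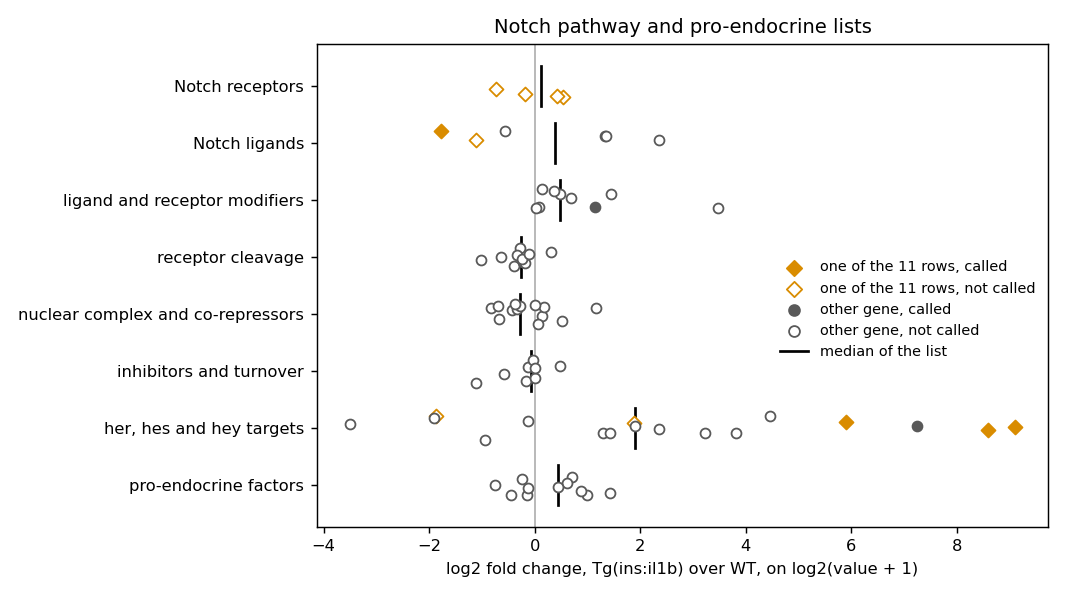
Log2 difference of Tg(ins:il1b) over WT for each gene of the pathway and pro-endocrine lists that could be tested, by list. Diamonds are members, circles are other genes, filled points are genes called by limma and black bars are the median of each list. The calls are her4.1, her4.4, both her4.2 genes and neurl1aa above 0 and jag2b below 0.

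The genes whose values over the 4 libraries lay nearest to those of the members were sought among 11723 genes with a mean of at least 100 normalised counts. The measure was the root mean square difference of log2 values after centring, where 0 is an identical pattern. For the forward-strand her4.2 gene these were her4.1 at 0.41, the forkhead factor foxq1a at 0.46 and dkk3a at 0.50. Like her4, foxq1a stood at 183.9 and 564.2 normalised counts in Tg(ins:il1b), against 0 and 0 in WT. The same held for dkk3a, at 367.9 and 330.2 in Tg(ins:il1b), against 0 and 0 in WT. For jag2b they were the tight junction gene oclna at 0.056, a gene known only by its clone name at 0.077 and the RNA-binding protein gene rbfox3b at 0.092. Oclna was measured at 507.3 and 478.7 in Tg(ins:il1b), against 1685.3 and 1895.7 in WT. With 4 libraries, such likeness is a description only.

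Because her4 is expressed in pancreatic duct and progenitor cells, markers of other cells were measured beside it. The duct list of 15 rows summed to 16937.4 and 32893.2 normalised counts in Tg(ins:il1b), against 18458.1 and 11989.1 in WT. Most of that sum was the keratin genes krt8 and krt18. Levels of krt8 overlapped between the genotypes, at 7882 and 16009 in Tg(ins:il1b), against 10131.4 and 5124.8 in WT. Of the 13 tested, limma called 1 higher and 0 lower, and DESeq2 called 2 higher and 1 lower. An unadjusted limma p under 0.05 was reached by 5 that were higher and 1 that was lower. The 1 called by limma was the keratin gene zgc:77517, at 262.8 and 822.8 in Tg(ins:il1b), against 2.8 and 14.5 in WT. The repressor gene id2a was measured at 467.9 and 2982.5 in Tg(ins:il1b), against 233.3 and 52.1 in WT. These lay higher in Tg(ins:il1b) in both libraries. Of the defining duct markers, sox9b was at or near 0, with 0 and 9.6 in Tg(ins:il1b), against 0.9 and 9.6 in WT. The chloride channel cftr was at 2 and 15 in Tg(ins:il1b), against 0 and 17.4 in WT. Both genes thus overlapped between genotypes, whereas the annexin gene anxa4 did not, at 894.4 and 2380.9 in Tg(ins:il1b), against 187.4 and 388.8 in WT. Other duct list genes ran the other way without overlap. The gene DESeq2 called lower, hnf1ba, was at 1352.2 and 916.9 in Tg(ins:il1b), against 2018.7 and 2428.3 in WT. Levels of nkx6.1 were 271.9 and 253.3 in Tg(ins:il1b), against 383.9 and 463.1 in WT. By contrast, hnf1bb was higher without overlap, at 262.8 and 336.6 in Tg(ins:il1b), against 165.3 and 125.4 in WT. So was krt18, at 4922.9 and 8592.8 in Tg(ins:il1b), against 4518.8 and 2825.8 in WT.

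Markers of the other islet endocrine cells differed between the genotypes in part. Their 8 rows summed to 257839.4 and 1678958 normalised counts in Tg(ins:il1b), against 119400.6 and 34851.9 in WT. Limma called ghrl and gcga higher, and DESeq2 called 5 higher and 0 lower. Ghrelin (ghrl) was measured at 11635.6 and 97000.8 in Tg(ins:il1b), against 40.4 and 8.7 in WT. Glucagon (gcga) was measured at 122372 and 383327 in Tg(ins:il1b), against 7690.1 and 3665.1 in WT. In both, as in her4.1, replicate 2 was the higher of the Tg(ins:il1b) libraries. The glucagon gene gcgb was measured at 76536.3 and 56798.3 in Tg(ins:il1b), against 16454.9 and 29078.7 in WT, whereas sst1.1 and sst1.2 overlapped between the genotypes. Those of sst2 did not, though narrowly, at 148.6 and 11910.8 in Tg(ins:il1b), against 144.2 and 6.8 in WT. Without overlap, arxa was at 66.7 and 199.8 in Tg(ins:il1b), against 0 and 2.9 in WT. Levels of hhex were 36.4 and 511.9 in Tg(ins:il1b), against 21.1 and 2.9 in WT. The part of these cells in the her4 values was not tested.

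The 12 rows of leukocyte markers summed to 18559.5 and 53926.6 normalised counts in Tg(ins:il1b), against 3746.2 and 16598.7 in WT, with 0 called by limma, 3 at an unadjusted p under 0.05 and 1 called by DESeq2. Most of that sum was cd74a and cd74b, which belong to antigen presentation. The 1 called by DESeq2 was mfap4, at 22.2 and 162.4 in Tg(ins:il1b), against 1.8 and 0 in WT. The pan-leukocyte gene ptprc was at 33.4 and 41.7 in Tg(ins:il1b), against 6.4 and 6.8 in WT, and the macrophage gene mpeg1.1 at 0 and 20.3 in Tg(ins:il1b), against 0 and 1 in WT. Levels of mfap4, ptprc and mpeg1.1 were low beside the hormone genes. Those of mfap4 and ptprc were of the order of the reverse-strand her4.2 gene, at 42.4 and 82.3 in Tg(ins:il1b). The part of leukocytes in the her4 values was not tested.

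Endothelial markers, which matter here because vessels express Notch genes, summed to 113.1 and 174.2 in Tg(ins:il1b), against 231.5 and 233.4 in WT. Of the 9 mural and fibroblast rows, rgs5a alone made up nearly all of the sum, at 51708.8 and 65099.3 in Tg(ins:il1b), against 97412.2 and 101800 in WT, and the other 8 rows were at 99.2 or below in every library. Acinar markers overlapped, at 2360.8 and 4399.4 in Tg(ins:il1b), against 1302.3 and 7925.5 in WT. Of the 6 glial and neuronal rows, plp1b was measured at 10023.6 and 8122.6 in Tg(ins:il1b), against 4248.7 and 3965.1 in WT, and elavl4 ran the other way, at 2043.5 and 3404.6 in Tg(ins:il1b), against 4041.2 and 4356.8 in WT. The part of these cells in the members' values was not tested.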

How the data were processed

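Reads were mapped by the authors with GSNAP to GRCz10, per the submitters' processing notes. The Ensembl annotation release is stated in the methods, whereas the GSNAP version, counting tool and strand use were not given in the sources used here. Overlapping and antisense genes therefore cannot be separated. The authors deposited normalised counts, a signal in which the counts of each library were divided by a factor of that library. Whole reads were recovered from the steps between low values, and nearly all values fell within 0.1 of one. Limma 3.58.1 (R 4.3.3) was fitted to log2(value + 1) with a variance trend, for 18504 genes reaching 10 normalised counts in 2 libraries or more. P-values were adjusted by Benjamini-Hochberg over these genes (threshold 0.05). This scale understates fold changes of low genes. DESeq2 1.42.0 and edgeR 4.0.16 were run on whole reads, and all 3 were tested on simulated data.

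The members and all lists were chosen with earlier results of these data known. From each pathway list, the named genes outside the set were those called, at most 3, and if that left fewer than 2, the pair with the highest mean. A gene that this rule names is not reported here. The her4 neighbours and other genes with values were named after their values were seen. Deviations of same-numbered libraries from their genotype means had r = 0.033 over genes. With 2 libraries a genotype, this r compares only the replicate difference of each genotype. It therefore cannot decide whether the replicate numbers mark pairs, and the main fit did not pair libraries. Figures were drawn with matplotlib 3.10.9.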

Additional observations from a re-analysis of the deposited data

How the results depend on the processing

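With 2 libraries a genotype, few degrees of freedom support each call. Limma called 302 genes, 4 members and 2 other pathway genes. Without the variance trend these were 13, 1 and 0, and with DESeq2 1245, 5 and 8. Other pathway genes called numbered 1 with a pseudocount of 0.5, 1 with edgeR and 1 with a replicate block, under which 437 genes were called. Summing her4.1 and her4.2 left 2 member calls, the sum and jag2b. With 1 library left out, limma called 0 to 1 genes and 0 members or pathway genes. With the filter also reset on the libraries that remained, chosen after seeing the data, it called 545 and 258 genes without Tg(ins:il1b) replicates 1 and 2, and 25 and 19 without WT replicates 1 and 2. When a Tg(ins:il1b) library was left out, the her4 genes fell below the reset filter and had no fit. DESeq2 left 1224 and 744 genes without Tg(ins:il1b) replicates 1 and 2, and 730 and 658 without WT replicates 1 and 2. Each of these fits leaves 1 library in a genotype, so nothing is read from its calls of members and pathway genes. The log2 difference of jag2b stayed between -1.85 and -1.68 in all 22 alternatives. That of notch1b ran from -0.78 to 0.44, and that of notch1a from -0.60 to 1.47, so their signs are not settled. The her4 members were higher under each of the 19 or 20 alternatives in which they were fitted. With 0 reads in both WT libraries, their sign could not have come out otherwise, so this is no measure of robustness. The fitted difference of her4.1 was 5.31 with a pseudocount of 10 and 9.59 with 0.5.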
